A study of Homo sapiens with 9 samples.

Results

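The 48 human genes described license replication origins, fire them and run the replication fork, and were measured by RNA sequencing in KHM-5M, a thyroid cancer cell line. The genes were picked by name from the 58735 genes of the deposited table, and replicative and other DNA helicases were left out by that choice. YK-4-279 is a small-molecule inhibitor of transcription factors of the ETS family. The 3 groups were cells of this one line after 24 h in the DMSO vehicle, in 0.3 μM YK-4-279 or in 1 μM YK-4-279, and each group had 3 samples. The purpose of the sequencing was to find genes and pathways that respond to the inhibitor. Nothing in the labels says whether the 3 samples of a group came from separate cultures, so the tests measure the spread between these samples, which may be technical. The study's methods give a smaller number of biological replicates per condition than the labels do, and the labels were followed.

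Before S phase, the origin recognition complex (ORC) marks start sites on DNA, and CDC6 and CDT1 use it to load the replicative helicase, a step called licensing that geminin blocks once S phase has begun. At firing, the kinase CDC7 with its partner DBF4, and the adaptors TOPBP1 and TICRR, bring CDC45 and the 4-part GINS complex to the loaded helicase. DNA polymerase alpha with primase then lays down primers, polymerase epsilon copies the leading strand and polymerase delta the lagging strand. The ring-shaped clamp PCNA, which clamp loaders close around DNA, holds polymerases on their template. Replication protein A coats single-stranded DNA, FEN1 and LIG1 process and seal Okazaki fragments, TIMELESS, TIPIN, CLSPN and WDHD1 steady the fork, and CHAF1A and CHAF1B put histones on the new DNA. Many of these genes are known targets of E2F factors, whose activity rises as proliferating cells enter S phase.

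All 48 genes had reads in every sample and passed the filter on low counts. Total counts lay between 16903251 and 18238884 per sample, and the 48 genes took 0.257% to 0.327% of them. A single gene had between 98 and 4219 counts in a sample. The samples of a group differed by more than sampling noise in every pair, with a chi-square per degree of freedom of 3.20 to 10.7. The labelled origin was checked against defining markers. Of 10 thyroid follicular cell markers, 9 were below 1 FPKM in the mean over all samples. The exception was PAX8, at 23.35 FPKM in this mean, which made up most of the list's sum. The thyroid identity of the line was therefore not visible in the other 9 genes. The list's summed level lay between 22.9 and 24.2 FPKM in DMSO, 22.9 and 28.2 at 0.3 μM and 22.6 and 24.5 at 1 μM. The 6 keratin and adhesion markers summed to 332 to 362 FPKM over all samples, and KRT8 and KRT18 made up most of this. Their means over all samples were 191.5 FPKM for KRT8, 132.4 for KRT18, 19.7 for KRT7, 2.32 for EPCAM, 1.92 for KRT19 and 0.017 for CDH1. All 8 immune markers were below 1 FPKM in the mean over all samples, which does not exclude a higher level in a single group, and MS4A1 was at 0. Their sum was 0.313 to 0.813 FPKM in DMSO, 0.487 to 1.29 at 0.3 μM and 0.993 to 1.51 at 1 μM. Of 8 fibroblast and endothelial markers, 5 were below 1 FPKM in the mean over all samples. The sum was 49.5 to 67.0 FPKM in DMSO, 44.4 to 61.9 at 0.3 μM and 43.3 to 48.8 at 1 μM. The single immune marker that could be tested, CD14, was higher at 1 μM than in DMSO, while the collagen gene COL1A1 and the receptor gene PDGFRB were lower, all 3 with an edgeR adjusted p under 0.05 (0.048, 0.013 and 7.7e-04). These 3 genes were named after their values were seen, and their part in the results below was not tested.

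Levels between genes were compared per length, as the authors' FPKM (fragments scaled to gene length and library size), in the DMSO samples. The median over the 48 genes was 11.97 FPKM, above the 4.20 FPKM of all genes tested. PCNA stood highest at 160 ± 4.9 FPKM (SD, n = 3), and the flap nuclease gene FEN1 was second at 61.6 ± 2.7 FPKM. RPA1, the large subunit of replication protein A, followed at 37.0 ± 1.4 FPKM, which overlapped with POLD2, a small subunit of polymerase delta, at 35.1 ± 3.4 FPKM. In total 31 genes reached 10 FPKM and 8 were under 5 FPKM. GINS3 was lowest at 1.32 ± 0.12 FPKM, while its partner GINS1 in the same complex was at 25.5 ± 0.82 FPKM. Within ORC the order was ORC1 at 12.4 ± 0.40, ORC6 at 10.5 ± 1.4, ORC2 at 8.71 ± 0.64, ORC3 at 7.65 ± 0.64, ORC5 at 3.06 ± 0.27 and ORC4 at 2.84 ± 0.33 FPKM. The DMSO samples of neighbours in this order overlapped for ORC1 with ORC6, ORC2 with ORC3 and ORC5 with ORC4, and did not for ORC6 with ORC2 or ORC3 with ORC5. The catalytic subunits POLA1 (3.38 ± 0.35 FPKM) and POLE (6.22 ± 0.11 FPKM) lay well below POLD1 (30.4 ± 3.1 FPKM). All these orders depend on the deposited gene lengths, which were 6336 bases for POLA1, 16609 for POLE and 4932 for POLD1. Mean DMSO counts, not scaled to length, were 376, 1807 and 2617, so the counts of POLE and POLD1 lay closer together than their FPKM.

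Promoter sequence is shown for some of the genes, because the factors that the inhibitor is directed at bind DNA motifs. These genes were picked by hand, so the stretches printed do not show how motifs and falls go together over the 48 genes. RefSeq promoters on GRCh38.p14, from 250 bases before the start of each gene to 50 after it, were matched by symbol for 43 of the 48 genes, and GINS4, POLD3, DSCC1, RPA2 and RPA3 had no entry. Letters of an E2F motif (spelled TTCGCGC in one form, TTGGCGC in another, with TTCCCGC and also TTGCCGC as further forms, all on either strand) were in 28 of the 43, or 65.1% (95% Wilson interval 50.2% to 77.6%). They were in 13.1% of all 27305 promoters of the table and in 20.6% of the 10676 promoters of genes tested. The first and second of these spellings can overlap on opposite strands. Letters of an ETS motif (CCGGAA, either strand) were in 16 of the 43, or 37.2% (24.4% to 52.1%), against 17.6% of all promoters and 29.2% of those of genes tested. Letters of the CHR element of G2/M genes (TTTGAA, either strand) were in 1 of the 43 (2.33%), that of DBF4, against 15.4% of all promoters and 9.48% of those of genes tested. These matches describe letters in a window and not binding.

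The following stretches are printed 5′ to 3′ on the strand of the gene, with E2F and ETS letters in capitals in either orientation. POLA2, the polymerase alpha subunit with the largest fall, and POLE held both motifs, whereas TICRR, also among the largest falls, held neither. GINS2 held both, and ORC1, CDT1, CDC7 and CHAF1A held 2 E2F matches each, which in ORC1 overlap. ORC1 also held ETS letters, from 196 bases before its start, outside the stretch printed. POLE4, a polymerase epsilon subunit that was not called, is shown because it carried the same E2F letters as CDT1 and CDC7. It is among 7 genes with E2F letters that were not called, and the rest of them are not printed. CDC45 and CHTF18, also among the largest falls, held neither motif and are not printed.
POLA2 (chr11:65261837-65261916, plus strand): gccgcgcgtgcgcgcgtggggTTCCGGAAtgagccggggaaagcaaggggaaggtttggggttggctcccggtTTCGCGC
TICRR (chr15:89575369-89575468, plus strand): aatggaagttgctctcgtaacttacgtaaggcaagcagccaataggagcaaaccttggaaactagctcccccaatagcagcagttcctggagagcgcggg
POLE (chr12:132687377-132687462, minus strand): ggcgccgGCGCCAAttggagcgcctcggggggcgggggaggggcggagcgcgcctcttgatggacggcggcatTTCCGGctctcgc
ORC1 (chr1:52404424-52404523, minus strand): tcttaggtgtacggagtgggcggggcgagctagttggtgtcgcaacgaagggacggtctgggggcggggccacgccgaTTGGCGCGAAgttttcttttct
CDT1 (chr16:88803689-88803788, plus strand): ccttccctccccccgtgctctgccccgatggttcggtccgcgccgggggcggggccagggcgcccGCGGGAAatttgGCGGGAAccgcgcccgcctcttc
CDC7 (chr1:91500741-91500850, plus strand): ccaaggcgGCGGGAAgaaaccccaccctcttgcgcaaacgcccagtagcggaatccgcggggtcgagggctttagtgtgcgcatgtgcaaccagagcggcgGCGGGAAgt
GINS2 (chr16:85688955-85689054, minus strand): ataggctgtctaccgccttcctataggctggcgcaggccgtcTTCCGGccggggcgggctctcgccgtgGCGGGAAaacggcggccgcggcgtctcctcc
CHAF1A (chr19:4402540-4402639, plus strand): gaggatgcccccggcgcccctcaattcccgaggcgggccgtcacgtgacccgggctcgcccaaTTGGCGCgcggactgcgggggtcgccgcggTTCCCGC
POLE4 (chr2:74958543-74958642, plus strand): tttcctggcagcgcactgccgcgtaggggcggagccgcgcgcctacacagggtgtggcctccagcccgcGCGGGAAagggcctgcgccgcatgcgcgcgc

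Each stretch lies before the RefSeq start of its gene and outside GENCODE 44 exons, except that 4 bases of the POLA2 stretch fall in an exon of another transcript. The stretches of POLA2, CDT1, GINS2 and POLE4 lie inside the span that the deposited table gives their genes, since that table starts these genes further upstream. The ORC1 stretch lies partly inside, with its E2F letters, since the deposited span of ORC1 ends at base 52404459.

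The comparison of 1 μM with DMSO asks which of these genes changed with the higher dose. At 1 μM, 29 of the 48 replication genes were lower than in DMSO and none was higher, at a p under 0.05 from the quasi-likelihood test of edgeR after Benjamini-Hochberg adjustment across the 15617 genes that were tested. Over all genes tested, 9.95% were called lower, 7.67% higher and 17.6% in either direction. The falls were of modest size, with fitted levels between 59.9% and 86.7% of DMSO among the 29 genes, and 4 genes fell past 1.5-fold (CDC45, TICRR, POLA2 and CHTF18), a cutoff that 4.14% of all genes passed downward and 5.51% in either direction. At an unadjusted p under 0.05 there were 33 of the 48 genes lower, 1 higher and 31.9% of all genes in either direction. DESeq2 called 25 lower and 0 higher, but the shares of all genes called are those of edgeR only. The 1 μM samples all lay below all DMSO samples for 33 genes, which are the 29 called genes with GMNN, RFC2, RFC3 and DSCC1, and 17.7% of all genes did so. In 1 gene, POLE3, they lay wholly above, as for 18.9% of all genes. Its edgeR adjusted p was 0.054, and it passed 0.05 in 4 of 15 alternatives. The median log2 fold change over the 48 genes was −0.30 with a median SE of 0.079, against −0.01 over all genes, and 41 of the 48 values were below 0 where 51.3% of all genes were. In these bulk samples, fewer cells in a phase of the cycle and less RNA per cell cannot be told apart.

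**Figure D1:**
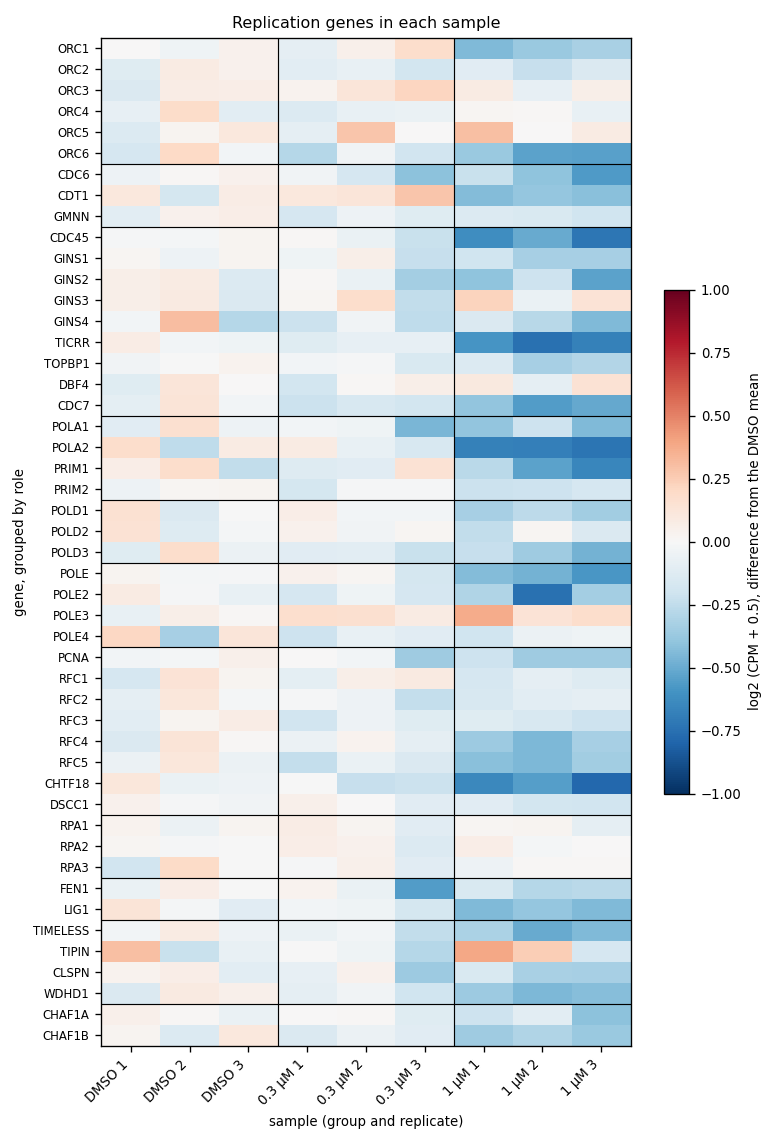
Rows are the 48 replication genes grouped by role (black lines), columns the 9 samples, and colour the log2 of CPM plus 0.5 minus the mean of the 3 DMSO samples. Blue cells, below the DMSO mean, fill most of the 1 μM columns, while the 3 rows of replication protein A stay pale in all groups.

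The levels given for single samples below are counts scaled to the library total after TMM normalization (CPM), in the order of replicates 1, 2 and 3, which carries no meaning. They are compared between groups and not between genes.

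Within ORC, 2 of 6 genes fell at 1 μM and 4 did not pass the test. ORC6 (chromosome 16, 46689643 to 46698394, plus strand), the smallest and most loosely attached subunit, had 40.3, 52.2 and 44.5 CPM in DMSO and 37.1, 44.3 and 39.6 CPM at 0.3 μM. At 1 μM it had 35.0, 31.2 and 31.1 CPM, so every 1 μM sample was below every DMSO sample and below every 0.3 μM sample. The fitted log2 fold change of ORC6 was −0.50 ± 0.094 (SE, edgeR adjusted p = 0.0026). ORC1, the ATPase subunit whose amount varies over the cell cycle in human cells, fell by 0.39 ± 0.075 on the log2 scale (edgeR adjusted p = 0.0029). The core subunits ORC2, ORC3, ORC4 and ORC5 had log2 fold changes of −0.17, 0.01, −0.03 and 0.13, with edgeR adjusted p from 0.12 to 0.95. The 95% interval for ORC3 was −0.18 to 0.20, so a change of the size seen in ORC6 lay outside it.

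Both loading factors fell, and their inhibitor was not called. CDT1 (chromosome 16, 88803213 to 88809258, plus strand), which brings the helicase to ORC, had 104, 85.4 and 102 CPM in DMSO and 104, 105 and 117 CPM at 0.3 μM. At 1 μM it had 71.4, 73.7 and 72.3 CPM. The 3 samples at 1 μM were close to one another and below all others, while the 3 samples at 0.3 μM were each above every DMSO sample. The log2 fold change of CDT1 at 1 μM was −0.43 ± 0.075 (SE, edgeR adjusted p = 0.0017). CDC6, the other loader, changed by −0.40 ± 0.081 (edgeR adjusted p = 0.0041). GMNN, which encodes geminin, had a log2 fold change of −0.17 with an interval of −0.32 to −0.02 and an edgeR adjusted p of 0.10.

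Of 9 origin firing genes, 6 fell and 3 did not pass the test. CDC45 (chromosome 22, 19479459 to 19520612, plus strand), a part of the active helicase that is not itself a helicase, had 71.0, 70.6 and 72.8 CPM in DMSO. It had 72.0, 68.4 and 61.0 CPM at 0.3 μM and 46.3, 50.3 and 43.1 CPM at 1 μM. The DMSO samples were tightly grouped and the 1 μM samples lay wholly below both other groups. At 1 μM CDC45 had a log2 fold change of −0.62 ± 0.071 (SE, edgeR adjusted p = 6.7e-05), a level of 64.9% of DMSO. TICRR (chromosome 15, 89575482 to 89631056, plus strand), also called treslin, had 49.7, 46.3 and 45.7 CPM in DMSO, 43.4, 44.7 and 44.6 CPM at 0.3 μM and 31.3, 27.9 and 29.4 CPM at 1 μM. No group overlapped another. For TICRR the log2 fold change at 1 μM was −0.68 ± 0.076 (edgeR adjusted p = 6.0e-05), the smallest adjusted p of the 48. Its exons share 589 bases, 7.0% of their length, with KIF7 on the opposite strand, and whether counting used strand is not given in the sources used here. Exons of 15 of the 48 genes overlapped those of an expressed neighbour, over 0.217% to 7.0% of their length, and in 4 of them the neighbour was on the same strand.

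The rest of the firing group was split. The kinase gene CDC7 changed by −0.50 ± 0.081 (SE, edgeR adjusted p = 9.2e-04), whereas DBF4, which activates that kinase, had a log2 fold change of 0.04 with an interval of −0.13 to 0.22. GINS1 and GINS2 fell, by 0.30 ± 0.061 and 0.39 ± 0.10 on the log2 scale (edgeR adjusted p = 0.0048 and 0.017). The other two GINS genes, GINS3 at 0.10 ± 0.15 and GINS4 at −0.32 ± 0.14, did not pass the test and are the lowest of the group in FPKM. TOPBP1, the adaptor that meets TICRR, changed by −0.26 ± 0.061 (edgeR adjusted p = 0.010).

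**Figure D2:**
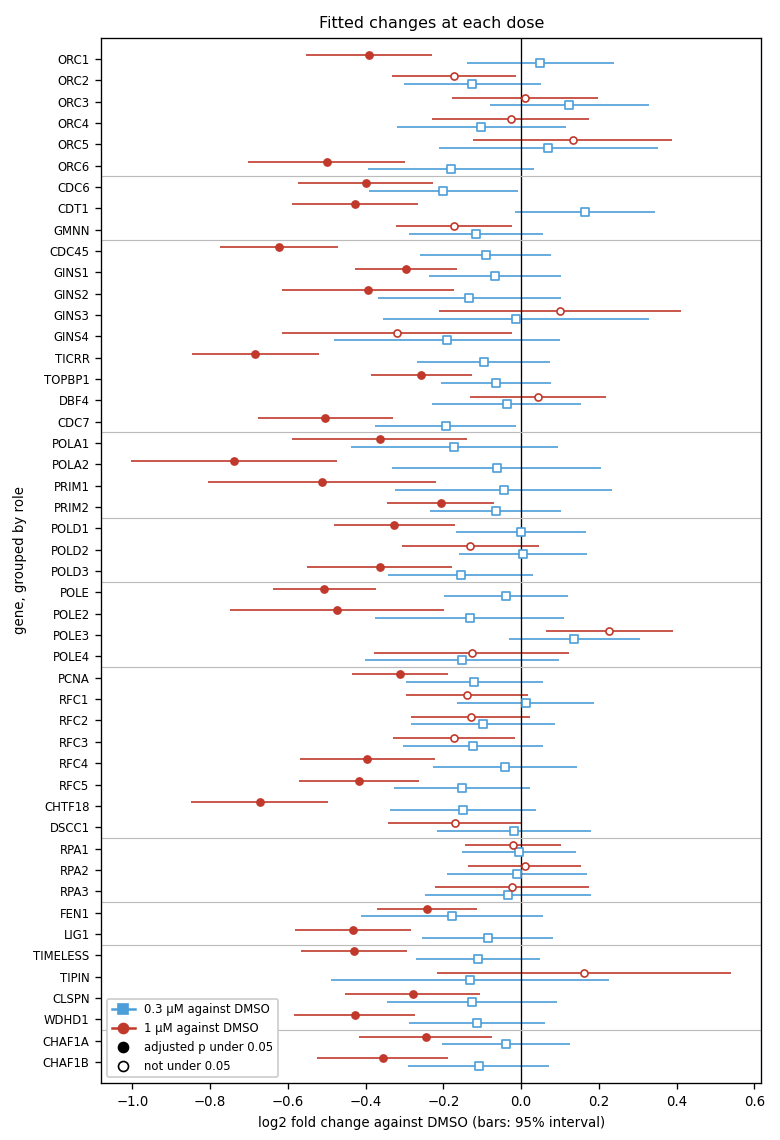
Points give the fitted log2 fold change against DMSO of each of the 48 genes at 0.3 μM (blue squares) and at 1 μM (red circles), with bars for the 95% interval and filled symbols for an adjusted p under 0.05. The 29 filled symbols are all at 1 μM and all left of 0, and no gene is filled at 0.3 μM.

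All 4 genes of polymerase alpha and primase fell at 1 μM. POLA2 (chromosome 11, 65261762 to 65305589, plus strand), the accessory subunit of polymerase alpha, had 19.9, 14.6 and 18.6 CPM in DMSO, 18.6, 16.6 and 15.7 CPM at 0.3 μM and 10.8, 10.8 and 10.4 CPM at 1 μM. DMSO and 0.3 μM overlapped, and the 1 μM samples lay below both with little spread. Its log2 fold change at 1 μM, −0.74 ± 0.12 (SE, edgeR adjusted p = 0.0011), was the largest in size of the 48 and corresponds to 59.9% of DMSO (95% interval 49.9% to 72.0%). The catalytic subunit gene POLA1 and the primase genes PRIM1 and PRIM2 changed by −0.36, −0.51 and −0.21, with edgeR adjusted p of 0.027, 0.019 and 0.039. PRIM1 shares 139 exonic bases on the same strand with NACA, whose mean count was 8456 against 239 for PRIM1, so that its value is uncertain. POLA1 kept its call in 7 of 15 alternatives and PRIM2 in 4 of 15.

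Polymerases delta and epsilon each had members that fell and members that did not pass the test. POLD3, an accessory subunit of polymerase delta on chromosome 11 (74493851 to 74669117, plus strand), had 54.4, 67.1 and 57.0 CPM in DMSO, 54.7, 54.9 and 50.8 CPM at 0.3 μM and 50.4, 46.3 and 42.6 CPM at 1 μM. All 1 μM samples were below all others, although the highest of them lay close to the lowest at 0.3 μM. Its log2 fold change was −0.36 ± 0.087 (SE, edgeR adjusted p = 0.011), and without 1 μM replicate 3 the adjusted p was 0.061. POLD1, the catalytic subunit, changed by −0.33 ± 0.073 (edgeR adjusted p = 0.0072) and POLD2 had a value of −0.13 (edgeR adjusted p = 0.30). POLE (chromosome 12, 132623753 to 132687365, minus strand), the catalytic subunit of polymerase epsilon, had 106, 103 and 104 CPM in DMSO, 107, 106 and 92.1 CPM at 0.3 μM and 76.9, 75.0 and 69.3 CPM at 1 μM. DMSO and 0.3 μM overlapped and 1 μM was wholly lower. The change at 1 μM was −0.51 ± 0.061 (edgeR adjusted p = 1.2e-04).

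The 4 genes of polymerase epsilon did not move alike. POLE2, the second subunit, changed by −0.47 ± 0.13 (SE, edgeR adjusted p = 0.020), in the same direction as POLE. The small histone-fold subunits POLE3 and POLE4 had log2 fold changes of 0.23 ± 0.076 and −0.13 ± 0.12 (edgeR adjusted p = 0.054 and 0.50). POLE3 is also known as a subunit of a chromatin remodeller. Its samples were at 42.8, 47.0 and 45.4 CPM in DMSO, 50.7, 50.3 and 47.8 CPM at 0.3 μM and 58.3, 49.6 and 51.1 CPM at 1 μM. Both treated groups therefore lay wholly above DMSO and overlapped each other.

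Of the 8 clamp and clamp loader genes, 4 fell, and 7 had all 1 μM samples below all DMSO samples. The clamp gene PCNA changed by −0.31 ± 0.058 (SE, edgeR adjusted p = 0.0024), or 80.6% of DMSO. RFC1, RFC2 and RFC3 of the main clamp loader had log2 fold changes of −0.14, −0.13 and −0.17 with edgeR adjusted p of 0.21, 0.23 and 0.12. RFC4 and RFC5 of the same complex changed by −0.40 and −0.42 (edgeR adjusted p = 0.0043 and 0.0015). CHTF18 (chromosome 16, 788046 to 800737, plus strand), which takes the place of RFC1 in an alternative loader linked to sister chromatid cohesion, had 62.6, 55.1 and 55.7 CPM in DMSO, 57.5, 49.2 and 49.7 CPM at 0.3 μM and 36.8, 39.2 and 33.2 CPM at 1 μM. DMSO and 0.3 μM overlapped and 1 μM lay below both. The CHTF18 log2 fold change was −0.67 ± 0.082 (edgeR adjusted p = 1.3e-04). DSCC1, another part of that alternative loader, had a value of −0.17 ± 0.080 (edgeR adjusted p = 0.16).

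None of the 3 genes of replication protein A passed the test, and their values were as small as those of ORC3, ORC4 and DBF4. RPA3 (chromosome 7, 7636518 to 7718607, minus strand), the smallest subunit, had 31.3, 41.0 and 35.8 CPM in DMSO, 35.5, 37.0 and 33.1 CPM at 0.3 μM and 34.6, 36.2 and 36.2 CPM at 1 μM. Both treated groups lay within the range of DMSO. Its log2 fold change at 1 μM was −0.02 with an interval of −0.22 to 0.18. RPA1 and RPA2 had values of −0.02 and 0.01, with intervals of −0.15 to 0.10 and −0.14 to 0.15. Each of the 3 intervals leaves out a fall as large as the median of the 48 genes.

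**Figure D3:**
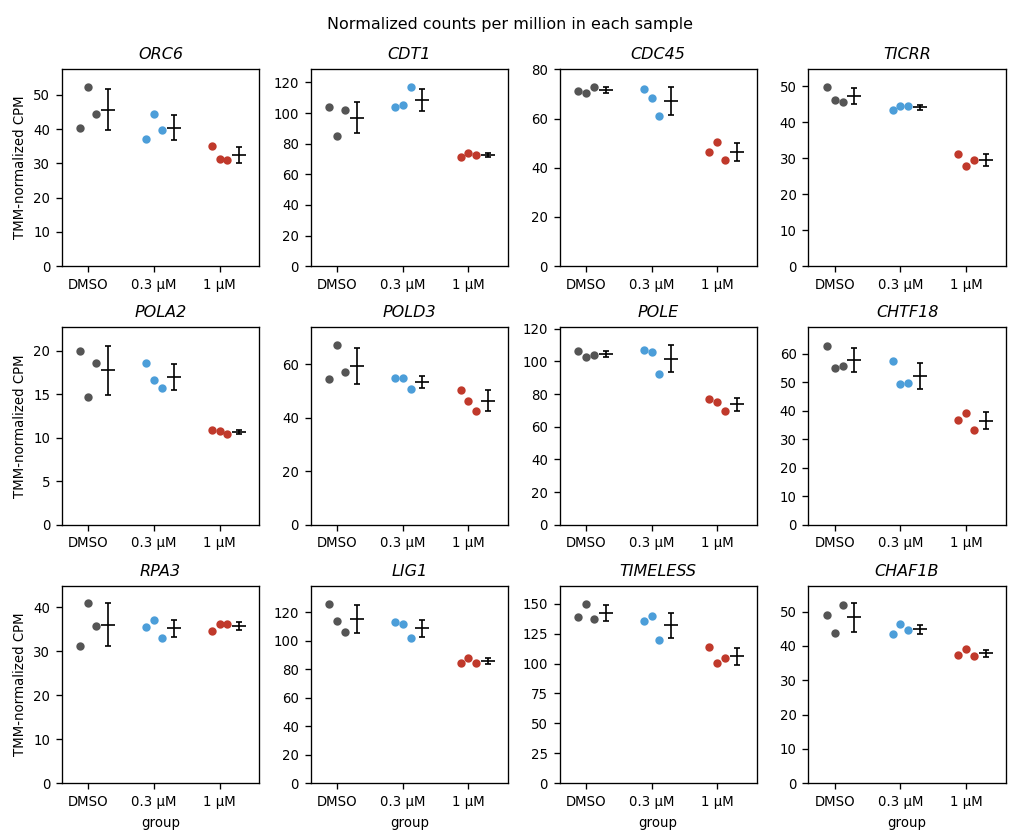
Each panel shows the TMM-normalized CPM of 1 gene in the 3 samples of each group (dots), with the mean and SD beside them in black, on an axis from 0. The 1 μM dots lie below all DMSO dots in 11 of 12 panels, and the groups of RPA3 overlap.

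Both genes that finish the new strands fell at 1 μM. LIG1 (chromosome 19, 48115445 to 48170603, minus strand), the ligase that joins Okazaki fragments, had 126, 114 and 106 CPM in DMSO, 113, 111 and 102 CPM at 0.3 μM and 84.6, 88.0 and 84.6 CPM at 1 μM. Only the 1 μM samples were separate from the rest. Its log2 fold change was −0.43 ± 0.069 (SE, edgeR adjusted p = 9.0e-04). FEN1 changed by −0.24 ± 0.060 (edgeR adjusted p = 0.013). It shares 49 exonic bases on the same strand with FADS2, which had a similar mean count.

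In the fork protection group, 3 of 4 genes fell. TIMELESS (chromosome 12, 56416373 to 56449403, minus strand) had 139, 150 and 137 CPM in DMSO, 136, 140 and 120 CPM at 0.3 μM and 114, 100 and 104 CPM at 1 μM. The 1 μM samples were below all others, and DMSO overlapped with 0.3 μM. The log2 fold change of TIMELESS was −0.43 ± 0.064 (SE, edgeR adjusted p = 5.0e-04). TIPIN, whose protein binds TIMELESS, had a value of 0.16 ± 0.18 with an interval of −0.22 to 0.54, the widest of the group, at 2.73 ± 0.56 FPKM in DMSO. The checkpoint mediator gene CLSPN and the polymerase alpha tether WDHD1 changed by −0.28 and −0.43 (edgeR adjusted p = 0.029 and 0.0013). CLSPN kept its call in 7 of 15 alternatives and WDHD1 in 15 of 15.

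Both genes of the chromatin assembly factor fell. CHAF1B (chromosome 21, 36385378 to 36419015, plus strand) had 49.1, 43.9 and 52.0 CPM in DMSO, 43.6, 46.3 and 44.6 CPM at 0.3 μM and 37.5, 39.1 and 37.1 CPM at 1 μM. The 1 μM samples were lower than all others. The log2 fold change of CHAF1B was −0.36 ± 0.079 (SE, edgeR adjusted p = 0.0068), and it shares 89 exonic bases on the same strand with MORC3, which had a similar mean count. CHAF1A was close to the threshold, with a change of −0.25 ± 0.080 (edgeR adjusted p = 0.048) that passed in 5 of 15 alternatives.

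The 29 called genes and the 19 others had similar levels in DMSO, with medians of 12.19 and 11.03 FPKM. The median GC content of their transcripts was 48.1% and 43.0%, and 29 of the 29 calls remained once the trend with GC content was removed. E2F letters were in 21 of the 28 called genes with a promoter (75.0%) and in 7 of the 15 others (46.7%). ETS letters were in 10 of 28 (35.7%) and 6 of 15 (40.0%). Over all genes tested, E2F letters were in 27.2% of promoters of genes called lower, 17.3% of those called higher and 20.6% of all. For ETS letters these shares were 30.3%, 29.8% and 29.2%. Without the 48 genes, E2F letters were in 25.8% of promoters of genes called lower. The median log2 fold change was −0.38 in the 28 genes with E2F letters and −0.17 in the 15 without, and −0.33 in the 16 genes with ETS letters and −0.30 in the 27 without. Of the 4 genes past 1.5-fold, POLA2 held both motifs and CDC45, TICRR and CHTF18 held neither. These counts are descriptions without a test.

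**Figure D4:**
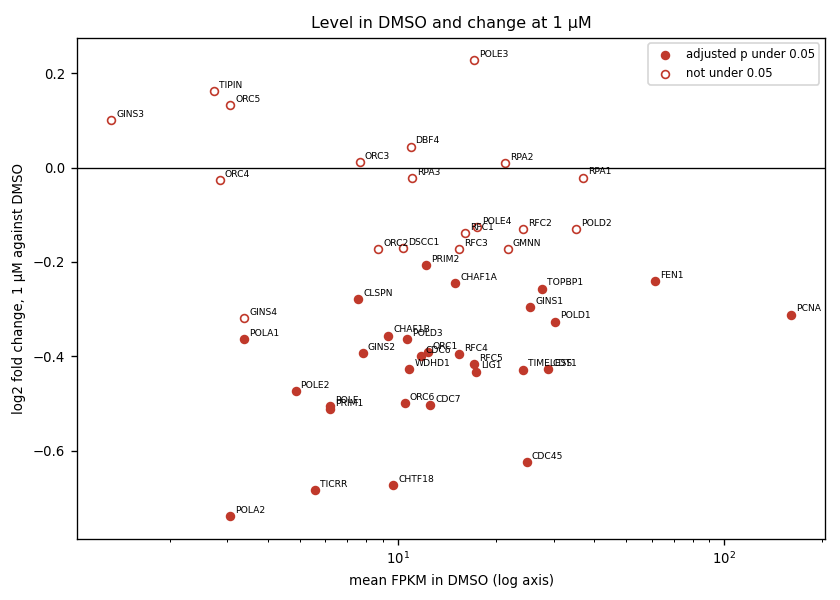
Each point is 1 of the 48 genes, with its mean FPKM in DMSO on a log axis and its fitted log2 fold change at 1 μM on the other axis, filled where the adjusted p was under 0.05. Called genes run from POLA2 at 3.06 FPKM to PCNA at 160 FPKM, and values above 0 reach 0.23 at POLE3.

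The comparison of 0.3 μM with DMSO gives the lower dose. None of the 48 genes was called by edgeR, nor was any other of the 15762 genes tested (0% called), and DESeq2 called none of the 48 either. At an unadjusted p under 0.05 there were 2 of the 48 (CDC6 and CDC7) and 3.77% of all genes. The log2 fold changes ran from −0.20 to 0.16 with a median of −0.09, against 0.00 for all genes. As at 1 μM, 41 of the 48 values were below 0, against 49.7% of all genes, but both comparisons use the same DMSO samples. The median SE was 0.087, and the 95% interval of CDC45, for example, ran from −0.26 to 0.08. The groups were separate and lower for TICRR, CDC7 and RFC5 (4.56% of all genes) and separate and higher for CDT1 and POLE3 (3.82% of all genes). A library stood apart here. The median difference from the DMSO mean over the 48 genes was −0.15 on the log2 scale in 0.3 μM replicate 3, but −0.04 and −0.03 in replicates 1 and 2. Without replicate 3 the median log2 fold change of the 48 genes was −0.03, and the count called stayed at 0.

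The comparison of 1 μM with 0.3 μM used no DMSO sample. It reused the 1 μM and 0.3 μM samples of the comparisons above, so its result is not separate from theirs. At the higher dose 17 of the 48 genes were lower and none was higher, where 6.75% of the 15583 genes tested were called lower, 5.85% higher and 12.6% in either direction. At an unadjusted p under 0.05 edgeR had 24 of the 48 lower and 0 higher, against 27.6% of all genes in either direction. DESeq2 called 16 lower and 0 higher, for which no share over all genes is given. The median log2 fold change was −0.18. The largest was that of POLA2, at −0.66 ± 0.11 (SE, edgeR adjusted p = 0.0011), the only gene past 1.5-fold between the doses (2.36% of all genes downward and 3.25% in either direction). CDT1 and TICRR were next, at −0.58 ± 0.068 and −0.58 ± 0.079 (edgeR adjusted p = 6.3e-05 and 2.4e-04). For CDT1 this was larger than its change from DMSO to 1 μM, since its 0.3 μM samples were the highest. CDC45, CHTF18, POLE and ORC1 changed by −0.52, −0.51, −0.46 and −0.43. The called genes were further CDC7, ORC6, PRIM1, POLD1, RFC4, RFC5, LIG1, TIMELESS, WDHD1 and CHAF1B. Without 0.3 μM replicate 2, 1 μM replicate 2 or 1 μM replicate 3, 10 genes were called in each case, and without 0.3 μM replicate 3 there were 21. The group means fell in order from DMSO through 0.3 μM to 1 μM for 33 of the 48 genes, as for 23.8% of all genes.

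Other genes of the pathway were taken as a list of 42 further replication factors, among them the MCM subunits and genes for nucleases, histone chaperones and cohesion loaders. At 1 μM, 20 were lower and 1 was higher, with a median log2 fold change of −0.19. Over all genes tested, 9.95% were called lower, 7.67% higher and 4.14% lower past 1.5-fold. Those past 1.5-fold were ATAD5, which unloads PCNA, at −1.14 ± 0.092 (SE, edgeR adjusted p = 9.5e-06) and the nuclease and helicase gene DNA2 at −0.63 ± 0.079 (edgeR adjusted p = 1.6e-04). The gene that rose was the histone chaperone ASF1A at 0.28 ± 0.090 (edgeR adjusted p = 0.042), named after its value was seen. At 0.3 μM edgeR and DESeq2 called none of the 42, and 3 had an unadjusted p under 0.05 in edgeR, all lower.

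Markers of cell cycle phases moved beside the replication genes. Of 26 S phase markers tested, apart from the 48 genes, 22 were lower at 1 μM, with a median log2 fold change of −0.31. Of the 27 markers listed, 6 are also among the other replication factors. The shares over all genes tested were 9.95% lower and 7.67% higher. Of 52 G2/M phase markers, 25 were lower and AURKA and LBR were higher, the last pair named after their values were seen, with a median of −0.18. In place of 27 G2/M markers called in either direction, 17 were called without DMSO replicate 3 and 17 without 1 μM replicate 1. The median difference from the DMSO mean in single 1 μM samples was −0.21 to −0.33 for the 48 genes, −0.25 to −0.33 for S phase markers and −0.13 to −0.21 for G2/M markers. Flow cytometry in the study, at an earlier time than the sequencing, found a larger share of cells in G2/M at the higher dose. At the lower dose it found no significant rise. The lower RNA of G2/M markers is therefore not a measure of fewer cells in that phase. The part of cell cycle phase in the changes of the 48 genes was not tested.

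**Figure D5:**
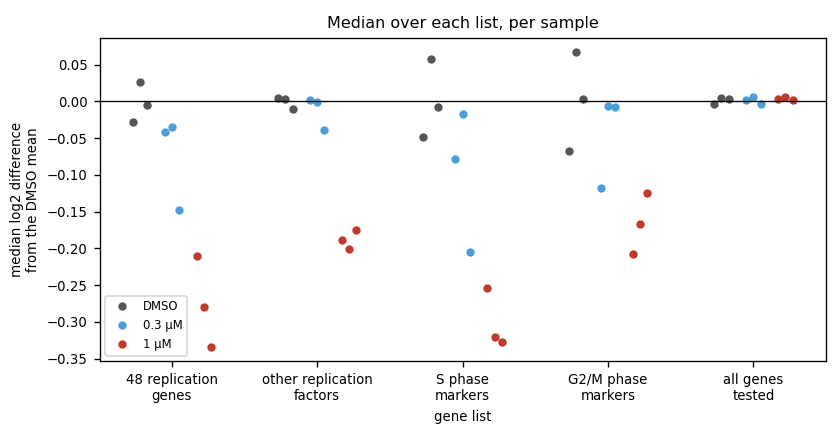
Each dot is 1 sample, and its height is the median over a gene list of the log2 difference from the DMSO mean, for the 48 genes, the other replication factors, the S phase and G2/M phase markers and all genes tested. All genes tested stay near 0 in every sample, while the 1 μM dots of the 48 genes lie between −0.33 and −0.21.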

How the data were processed

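RNA of KHM-5M cells was purified by poly(A) selection and sequenced. According to the methods, the authors used Hisat2 with GRCh38 for alignment and HTseq for counting, whereas the submitters' processing notes name HISAT2 2.0.5, featureCounts 1.5.0-p3 and DESeq2 1.20.0. The deposited table holds whole-number counts per gene and sample without normalization, which were the values tested. The authors also deposited FPKM values, scaled to gene length and library size, which were used for levels between genes. Columns of the authors' own comparisons (group means, fold changes and p-values) were not used.

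Genes were kept by filterByExpr at a minimum count of 10, scaled by TMM and tested by glmQLFit and glmQLFTest in edgeR 4.0.16 (R 4.3.3) on the 2 groups of each comparison. Benjamini-Hochberg adjustment ran over all genes tested, and an adjusted p under 0.05 was called. SE is the log2 fold change divided by the root of its F value. Alternatives used DESeq2 1.42.0, limma 3.58.1 on log2 FPKM with a pseudocount of 1 or 0.1, RLE factors, no filter, all 9 samples, a replicate block and left-out samples. Trends with GC content and gene length, removed by lowess with a span of 0.3, were added after the data were seen. Figures and summaries used Python 3.11.15 with pandas 2.3.3. The steps were tested on simulated data.

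Genes given with values in every sample were those past 1.5-fold at 1 μM, any that rose, and the largest change in each role. POLE3, outside this rule, was added after its values were seen. The 48 genes and the marker lists were chosen with earlier results of these data known. Every gene described had counts in every sample. Pseudogene copies of 7 of the 48 genes had no counts, except DBF4P1 at 0.425% of the DBF4 count.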

Additional observations from a re-analysis of the deposited data

How the results depend on the processing

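Of the 29 genes called lower at 1 μM, 19 kept the call in each of the 15 alternatives run for that comparison, and the fewest, 20 of 29, were kept without 1 μM replicate 3. DESeq2 called 25 of the 48 and limma on log2 FPKM 22, for which no shares over all genes are given. Leaving out a sample gave 20 to 27 called at 1 μM, 3 to 5 past 1.5-fold, 0 at 0.3 μM, 10 to 21 for 1 μM against 0.3 μM, and 17 to 29 G2/M markers called. The median log2 fold change of the 48 genes then ran from −0.33 to −0.26 at 1 μM, −0.11 to −0.032 at 0.3 μM and −0.24 to −0.14 between the doses. With limma on log2(FPKM + 1) the median at 1 μM was −0.246 and 0 genes passed 1.5-fold. The pseudocount shrinks changes, most of all those of low genes. CDC45, at 24.9 FPKM in DMSO and so not low, was then at −0.581, just short of the cutoff. At a 2-fold cutoff 0 genes passed. On the strand of the gene alone, E2F letters were in 27.9% of the 43 promoters, ETS letters in 23.3% and CHR letters in 0%, against 7.09%, 9.98% and 8.46% of all promoters, since fewer strands were searched. With 150 bases before the start, ETS letters were in 23.3%, against 14.4% of all promoters.

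Genes that were not called changed sign between settings, and the cause was not tested. Without single samples, values at 1 μM ran from −0.053 to 0.062 for ORC3, −0.079 to 0.080 for ORC4, −0.012 to 0.11 for DBF4, −0.046 to 0.018 for RPA1, −0.0067 to 0.029 for RPA2 and −0.11 to 0.087 for RPA3. At 0.3 μM they ran from −0.18 to 0.034 for POLA2, −0.077 to 0.029 for POLE and −0.12 to 0.072 for RPA3, and between the doses from −0.026 to 0.062 for RPA3. With no filter the values at 1 μM were 0.000734 for ORC4, 0.00504 for RPA1 and 0.0047 for RPA3, and limma gave 0.0025 and 0.0033 for RPA3 with pseudocounts of 1 and 0.1. With the GC trend removed, ORC4 was at 0.014 at 1 μM and RPA3 at −0.024 between the doses. With the length trend removed, ORC3 was at −0.0036 at 1 μM and RPA3 at −0.00103 between the doses.

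Same-numbered samples of different groups had correlations of −0.02 to 0.08, so the numbers were not taken to pair samples. With the replicate number as a block, 27 of the 48 genes were called at 1 μM, 0 at 0.3 μM and 15 between the doses, and not every sample correlated best with its own number.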
